A study of Mus musculus with 9 samples.

Results

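The blood-cell miRNAs are 8 mature miRNAs chosen by name: mmu-miR-144-3p, mmu-miR-144-5p and mmu-miR-486-5p, which are made by red cells, and mmu-miR-142-3p, mmu-miR-142-5p, mmu-miR-223-3p, mmu-miR-150-5p and mmu-miR-155-5p, which are made by white cells. The prefix mmu (mouse) is left out from here on. They are 8 of 986 rows of mature miRNAs measured by small RNA sequencing of mouse embryos. The embryos were female, at embryonic day 9.5, and were mutants of the miR-17~92 cluster or wild type. The cluster encodes 4 seed families (those of miR-17, of miR-18, of miR-19 and of miR-92). RNA came from the embryo after removal of its heart and tail bud. Each of 8 genotypes had 1 library. Delta-17, Delta-18, Delta-19 and Delta-92 lack the family in their name, Delta-17,18 lacks 2 families, 19-only lacks all but miR-19, the full deletion is the knockout of the cluster, and wild type keeps all of it. The labels give no zygosity, and the number of embryos per library is not stated in them.

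At this stage blood in the embryo is mostly primitive red cells from the yolk sac, with few macrophage-lineage cells and almost no lymphocytes. miR-144 and miR-451 are cut from 1 primary transcript that the erythroid factor GATA1 drives. miR-486 lies in the red-cell membrane gene Ank1 and is also made by muscle. miR-142 is made by nearly all white blood cells, miR-223 marks granulocytes and monocytes, miR-150 mature lymphocytes, and miR-155 activated lymphocytes and macrophages.

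Mature sequences were found for 6 of the 8 miRNAs in RefSeq (GRCm38.p6), and are shown because the seed, bases 2 to 8 in capitals, sets the targets of a miRNA. miR-451, the partner of miR-144, is added. miR-142 stands in RefSeq as miR-142a and miR-451 as miR-451a.
miR-144-3p: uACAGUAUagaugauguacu
miR-144-5p: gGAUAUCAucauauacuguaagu
miR-142-3p: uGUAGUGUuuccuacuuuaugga
miR-142-5p: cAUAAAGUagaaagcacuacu
miR-155-5p: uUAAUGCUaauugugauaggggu
miR-223-3p: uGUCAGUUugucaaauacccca
miR-451: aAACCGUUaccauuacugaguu
The 6 members with a sequence had 6 distinct seeds, and no other miRNA of the RefSeq table carried any of them. None of these seeds therefore places a member in a family with another member.

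The hairpins of miR-144, miR-451 and miR-142 are shown with the mature sequences in capitals. The arms of miR-144 and of miR-142 are compared below, and miR-451 is shown as the partner of miR-144.
Mir144: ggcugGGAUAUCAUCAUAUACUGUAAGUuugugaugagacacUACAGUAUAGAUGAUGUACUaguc
Mir451a: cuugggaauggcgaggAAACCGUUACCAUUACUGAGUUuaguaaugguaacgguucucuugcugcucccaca
Mir142: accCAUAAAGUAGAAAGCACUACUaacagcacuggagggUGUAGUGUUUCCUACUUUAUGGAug
Mir144 lies on the plus strand at chr11:78073005-78073070 of GRCm38 and Mir451a follows on the same strand at chr11:78073170-78073241, with 99 bases between them. Mir142 lies on the plus strand at chr11:87756864-87756927, within the noncoding gene Mir142hg and outside its annotated exons, and Mir142b overlaps it on the minus strand. Mir155 lies at chr16:84714140-84714204 in an exon of Mir155hg, Mir223 at chrX:96242817-96242926 in an exon of the noncoding gene F630028O10Rik, and Mir150 at chr7:45121757-45121821. Mir486 lies at chr8:23142555-23142682 within Ank1, outside Ank1 exons, and Mir3107 overlaps it on the minus strand. The deposited table was made on mm9, so these positions locate the hairpins only.

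Reads assigned to miRNAs numbered between 6564471 (Delta-92) and 18481380 (Delta-18) in the 8 genotype libraries. Levels are in normalised RPM (nRPM), the authors' normalised reads multiplied by 1 common factor. One read equalled 0.0624 nRPM in Delta-18, the deepest of these libraries, and 0.157 nRPM in wild type, the one with the largest value. With no replicates, each ratio sets 1 library against another, and all 95% intervals of levels and ratios (exact Poisson and exact conditional) cover counting error only. The 8 miRNAs together took between 0.147% (19-only) and 0.258% (Delta-18) of a library's reads. A lower level can stand for fewer blood cells in the sample or for less of the miRNA in each, which cannot be told apart in RNA of mixed tissue.

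miR-144-3p, the strand of the erythroid hairpin best known for its targets, stood at 167 nRPM in Delta-17, 291 in Delta-18, 154 in Delta-19, 83.7 in Delta-92, 168 in Delta-17,18, 134 in 19-only and 146 in the full deletion, against 85.5 nRPM in wild type. It was highest in Delta-18, and Delta-92 and wild type were lowest and did not differ beyond counting error. The other pairs of neighbours in the order that did not differ were Delta-17,18 with Delta-17, and Delta-19 with the full deletion.

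The opposite arm miR-144-5p stood at 154 nRPM in Delta-17, 195 in Delta-18, 136 in Delta-19, 67.7 in Delta-92, 52.2 in Delta-17,18, 98.6 in 19-only and 92.3 in the full deletion, against 98.4 nRPM in wild type. Delta-18 was again highest. Delta-17,18 was lowest here, although it ranked second for miR-144-3p.

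miR-451, which red cells need for normal maturation and which is not one of the 8, shared part of this order. It stood at 458 nRPM in Delta-17, 534 in Delta-18, 419 in Delta-19, 226 in Delta-92, 289 in Delta-17,18, 249 in 19-only and 234 in the full deletion, against 261 nRPM in wild type. The 3 highest libraries, Delta-18, Delta-17 and Delta-19, were the same and in the same order as for miR-144-5p. Pearson's r of miR-451 on the log2 scale over the 8 libraries was 0.80 with miR-144-5p and 0.77 with miR-144-3p, as a description over points that share libraries and scaling. This likeness was not particular to miR-144. With the white-cell miRNAs, r of miR-451 was 0.79 for miR-142-3p, 0.70 for miR-142-5p and -0.03 for miR-155-5p.

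miR-486-5p, the most abundant of the 8, followed another order. It stood at 1145 nRPM in Delta-17, 943 in Delta-18, 1299.5 in Delta-19, 838 in Delta-92, 705 in Delta-17,18, 608 in 19-only and 1146 in the full deletion, against 1187 nRPM in wild type. It was highest in Delta-19 and lowest in 19-only (in Delta-17,18 with plain read totals), and Delta-18, the top library of both miR-144 arms and of miR-451, was the fifth. Its r with miR-144-3p over the 8 libraries was -0.02, with miR-144-5p 0.49 and with miR-451 0.36. The row of miR-3107-3p held the same reads in all 8 genotype libraries and was counted once. The row of miR-486-3p stood at between 1.02 times (Delta-17) and 1.09 times (Delta-17,18) the level of miR-486-5p, so the arms of the overlapping hairpins Mir486 and Mir3107 are uncertain as separate measurements.

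**Figure D1:**
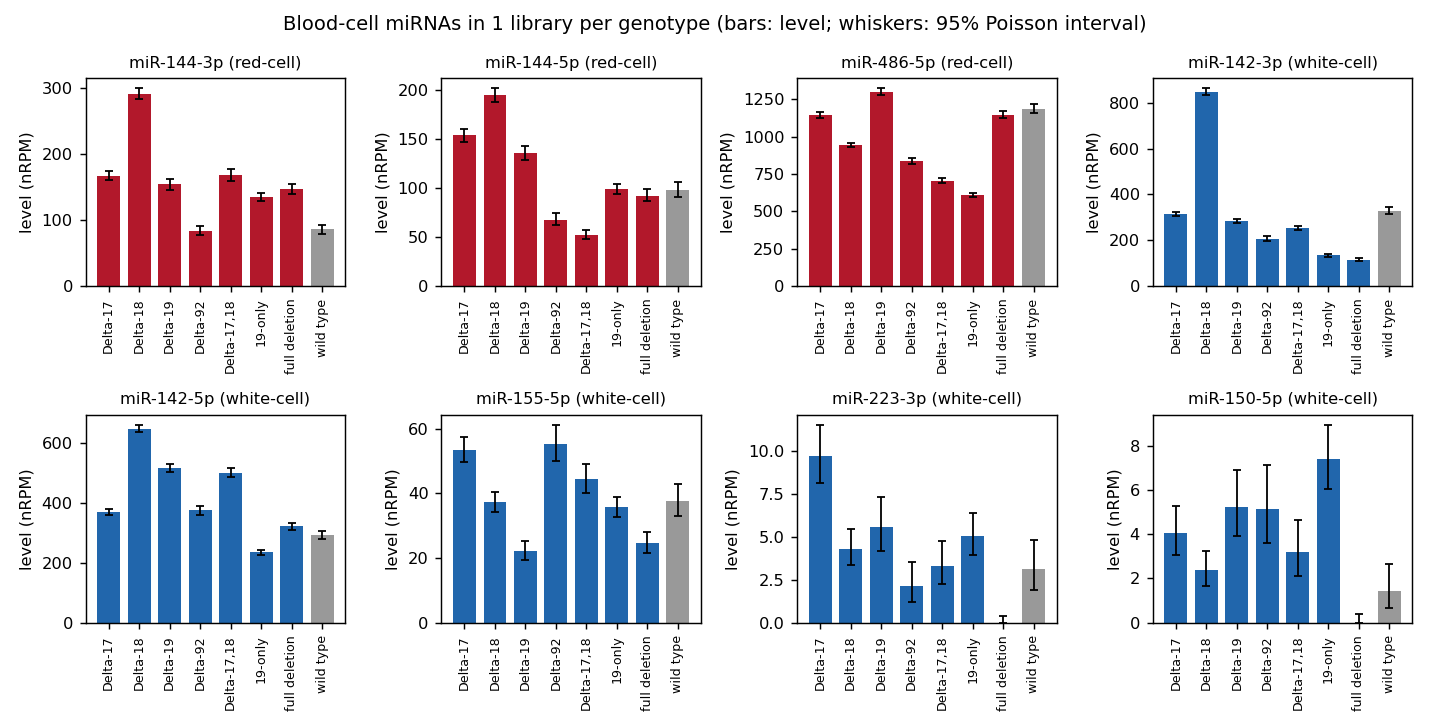
Level in nRPM (vertical axes, linear from 0) of each of the 8 miRNAs in the 7 mutant libraries and, in grey at the right, wild type. Bars are single libraries and whiskers 95% Poisson intervals. Both arms of miR-144 and of miR-142 are highest in Delta-18, miR-486-5p is not, and miR-223-3p and miR-150-5p are at 0 in the full deletion.

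Among the white-cell miRNAs averaging 10 nRPM or more, miR-142-3p had the widest range. It stood at 313 nRPM in Delta-17, 849 in Delta-18, 283 in Delta-19, 207 in Delta-92, 253 in Delta-17,18, 134 in 19-only and 114 in the full deletion, against 328 nRPM in wild type. Its range of 7.42-fold was wider than that of 92.0% of the 551 miRNAs averaging 10 nRPM or more, whose median range was 2.60-fold. Delta-18 stood far above all others, and Delta-17 and wild type were the only neighbours in the order that did not differ beyond counting error.

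The opposite arm miR-142-5p stood at 371 nRPM in Delta-17, 648 in Delta-18, 516 in Delta-19, 376 in Delta-92, 501 in Delta-17,18, 235 in 19-only and 322 in the full deletion, against 292 nRPM in wild type. It ranged 2.75-fold. Delta-18 was highest on both arms, while wild type ranked second for miR-142-3p and second from the bottom for miR-142-5p.

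miR-155-5p, which is processed from the noncoding RNA Mir155hg, stood at 53.5 nRPM in Delta-17, 37.3 in Delta-18, 22.2 in Delta-19, 55.4 in Delta-92, 44.3 in Delta-17,18, 35.7 in 19-only and 24.6 in the full deletion, against 37.7 nRPM in wild type. Both libraries without miR-19 were lowest and did not differ from each other beyond counting error. Delta-17,18, wild type, Delta-18 and 19-only formed a run in which no neighbours differed.

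miR-223-3p and miR-150-5p averaged 4.16 and 3.61 nRPM and fell under the minimum of 10 nRPM that 6 of the 8 passed. miR-223-3p had 131 reads in Delta-17, 69 in Delta-18, 53 in Delta-19, 15 in Delta-92, 29 in Delta-17,18, 73 in 19-only and 0 in the full deletion, against 20 in wild type. In nRPM it was highest in Delta-17, at 9.71 nRPM, which was 3.10-fold (95% interval 1.93 to 5.24) of the 3.13 nRPM in wild type. miR-150-5p had 55, 38, 50, 36, 28, 107 and 0 reads in the same 7 mutant libraries, against 9 in wild type. Its highest level, 7.41 nRPM in 19-only, was 5.26-fold (2.67 to 11.8) of the 1.41 nRPM in wild type.

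The full deletion was thus the 1 library with no read of either miRNA. With 3 reads as the limit for a count of 0, the limit in that library was 0.315 nRPM. The wild-type level of miR-223-3p was 9.95 times this limit and that of miR-150-5p 4.48 times. These values leave out counting error in the wild-type reads, 20 for miR-223-3p and 9 for miR-150-5p, so they are not lower bounds. For miR-150-5p the exact conditional interval of wild type over the full deletion, which includes that error, began at 2.95-fold. No such interval was taken for miR-223-3p in this pair. The opposite arm miR-223-5p had 58 reads in the full deletion, or 6.09 nRPM, its highest level of the 8 libraries, against 14 reads or 2.19 nRPM in wild type. Of 151 miRNAs that averaged between 2 and 8 nRPM, 6 (3.97%) were at 0 in the full deletion and 5 (3.31%) in wild type.

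Summed, the red-cell miRNAs were above the white-cell miRNAs in every library but Delta-18. The red-cell sum, of which miR-486-5p made up 66.0% to 86.6%, stood at 1466 nRPM in Delta-17, 1429 in Delta-18, 1589 in Delta-19, 989 in Delta-92, 925 in Delta-17,18, 841 in 19-only and 1385 in the full deletion, against 1371 nRPM in wild type. The white-cell sum, of which miR-142 made up 88.5% to 97.1%, stood at 751 nRPM in Delta-17, 1541 in Delta-18, 833 in Delta-19, 645 in Delta-92, 804 in Delta-17,18, 418 in 19-only and 460.5 in the full deletion, against 663 nRPM in wild type. The ratio of red to white reads, which does not depend on the scaling, was 1.95 in Delta-17, 0.928 (0.911 to 0.945) in Delta-18, 1.91 in Delta-19, 1.53 in Delta-92, 1.15 in Delta-17,18, 2.01 in 19-only and 3.01 (2.91 to 3.11) in the full deletion, against 2.07 (1.99 to 2.15) in wild type. The ratio was thus lowest in Delta-18, where the white-cell sum was highest. It was highest in the full deletion, where the red-cell sum was near wild type and the white-cell sum below it. The ratio mostly sets miR-486-5p against miR-142, and the other members did not all move with them. In Delta-18 miR-144-3p stood at 3.40-fold and miR-144-5p at 1.98-fold of wild type, but miR-486-5p at 0.795. Among the white-cell miRNAs there, miR-142-3p stood at 2.59-fold and miR-142-5p at 2.22-fold, but miR-155-5p at 0.988.

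**Figure D2:**
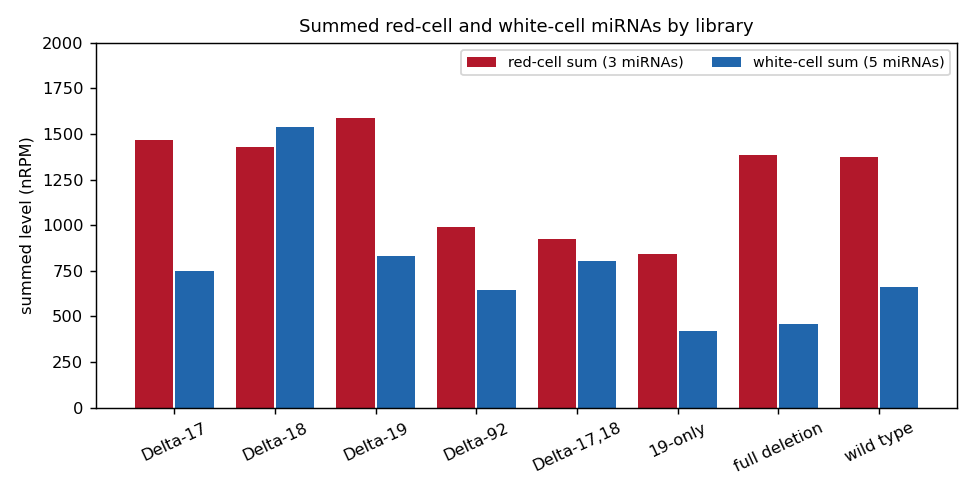
Summed level in nRPM (vertical axis, linear from 0) of the 3 red-cell and the 5 white-cell miRNAs in each of the 8 genotype libraries, with wild type at the right. The white-cell bar exceeds the red-cell bar in Delta-18 alone, at 1541 against 1429 nRPM.

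Each mutant library was set by size against wild type, which keeps the cluster, with a ratio of 2 or more or 0.5 or less counted as past 2-fold. Delta-18 was the mutant with most members past 2-fold, all 3 higher. miR-144-3p was 3.40-fold (3.11 to 3.72) of wild type there, miR-142-3p 2.59-fold (2.47 to 2.71) and miR-142-5p 2.22-fold (2.11 to 2.33). miR-144-5p stood just under the limit at 1.98-fold (1.82 to 2.16) and past it under 3 of the other 4 scalings, and miR-451 stood at 2.04-fold. miR-486-5p stood at 0.795 and miR-155-5p at 0.988 (0.850 to 1.15) of wild type in the same library. These 3 of 6 members compare with 17.8% of the 551 miRNAs averaging 10 nRPM or more that were past 2-fold in either direction in Delta-18. The 3 come from the hairpins of miR-144 and miR-142 only, and the arms of a hairpin are not separate cases.

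miR-142-3p was the only member past 2-fold in another mutant, at 0.409 (0.384 to 0.435) of wild type in 19-only and 0.349 (0.324 to 0.375) in the full deletion. That is 1 of 6 members in each, beside 22.7% of all 551 miRNAs in 19-only and 20.7% in the full deletion, so the members' shares were near the background. No member was past 2-fold in Delta-17 (13.2% of all), Delta-19 (15.8%), Delta-92 (18.0%) or Delta-17,18 (25.8%). With plain read totals miR-142-3p stood at 0.530 of wild type in 19-only, inside the limit, and miR-144-3p stood past it in 6 of 7 mutants. miR-144-3p was 1.95 times wild type in Delta-17 and 1.97 times in Delta-17,18, and miR-486-5p was at 0.512 in 19-only. Over 5 scalings these values ranged from 1.95 to 2.26, from 1.90 to 2.05, and from 0.509 to 0.664.

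miR-144-3p was above wild type in 6 of 7 mutants and stood at 0.979 (0.870 to 1.10) of it in Delta-92, with 0.921 to 1.15 over 5 scalings. These ratios share the wild-type library. The median log2 ratio of the 6 members was 0.42 in Delta-17, 1.07 in Delta-18, 0.30 in Delta-19, -0.27 in Delta-92, -0.07 in Delta-17,18, -0.20 in 19-only and -0.07 in the full deletion. Over all 551 miRNAs the medians lay between -0.02 and 0.04.

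Set against all libraries in place of wild type alone, Delta-18 was the highest of the 8 for 4 of the 6 members, both arms of miR-144 and both of miR-142, while it was highest for 8.17% of the 551 miRNAs. It stayed highest for these 4 under all 5 scalings. miR-451 was highest in Delta-18 under 4 of the 5. The 4 members are arms of the miR-144 and miR-142 hairpins only, so they are not 4 separate cases. With the median of the other 7 libraries as the reference, 1 member, miR-142-3p, was past 2-fold in Delta-18.

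**Figure D3:**
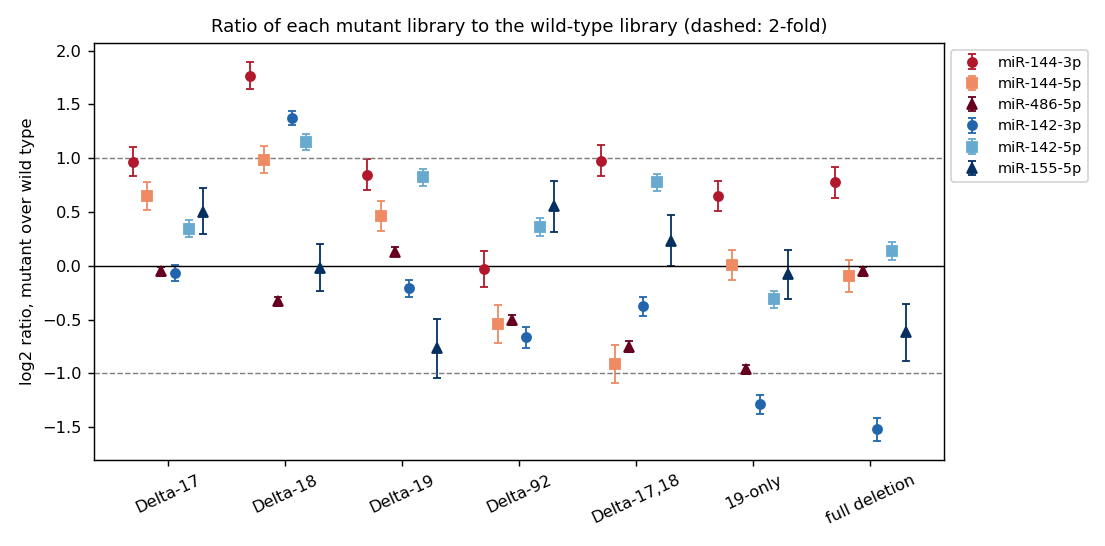
Log2 ratio of each mutant library to the wild-type library (vertical axis) for the 6 miRNAs that averaged 10 nRPM or more, with red-cell miRNAs in reds and white-cell miRNAs in blues. Whiskers are 95% intervals of counting error and dashed lines mark 2-fold. In Delta-18 miR-144-3p and both arms of miR-142 lie above the upper line, and miR-142-3p lies below the lower line in 19-only and the full deletion.

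The arms of a hairpin, whose sequences are shown above, come from 1 precursor, so their ratio compares reads within a library and does not depend on the scaling. miR-142-3p over miR-142-5p was 0.845 in Delta-17, 1.31 (1.28 to 1.34) in Delta-18, 0.549 in Delta-19, 0.551 in Delta-92, 0.505 in Delta-17,18, 0.570 in 19-only and 0.356 (0.332 to 0.381) in the full deletion, against 1.12 (1.05 to 1.20) in wild type. The 3p arm was in excess in Delta-18 and wild type and in the minority in the other 6. In the full deletion, where miR-142-3p stood at 0.349 of wild type, miR-142-5p stood at 1.10 (1.04 to 1.17).

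miR-144-3p over miR-144-5p was 1.08 in Delta-17, 1.49 in Delta-18, 1.13 in Delta-19, 1.24 in Delta-92, 3.22 (2.90 to 3.58) in Delta-17,18, 1.36 in 19-only and 1.59 in the full deletion, against 0.869 (0.774 to 0.977) in wild type. Delta-17,18 stood apart, with miR-144-3p at 1.97-fold and miR-144-5p at 0.531 (0.470 to 0.600) of wild type. Wild type was the 1 library with more of the 5p arm. The arm ratio ranged 3.68-fold for miR-142 and 3.70-fold for miR-144 over the 8 libraries. Over the 169 hairpins with both arms at 10 nRPM or more, the median range was 4.13-fold, and 41.4% of them ranged less than miR-142 and 42.0% less than miR-144.

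**Figure D4:**
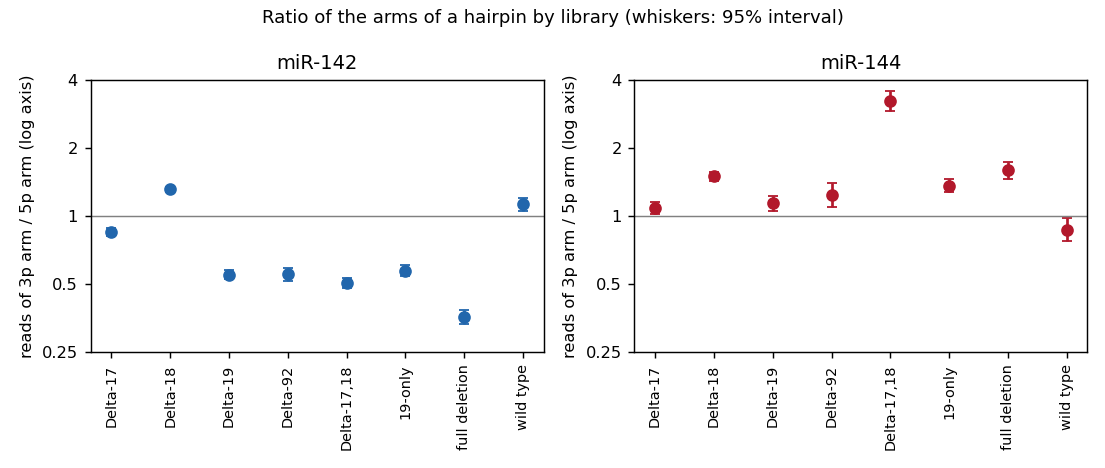
Reads of the 3p arm divided by reads of the 5p arm (vertical axes, log scale) of miR-142 and miR-144 in the 7 mutant libraries and, at the right, wild type. Points are single libraries and whiskers 95% intervals. The ratio of miR-142 is above 1 in Delta-18 and wild type only, and that of miR-144 reaches 3.22 in Delta-17,18.

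Loss of each family was then tested over the 8 libraries in 1 limma model with a term for each family, fitted to all 551 miRNAs with Benjamini-Hochberg adjustment. The libraries in a group differ in their other families, so its p-values rest on how single libraries scatter around an additive model. Of the 6 members, 0 were called for any of the 4 terms, and edgeR and DESeq2 on the recovered reads called 0 as well. At an unadjusted limma p under 0.05 there was 1 for miR-17 and for miR-92 (miR-142-3p in both), 1 for miR-19 (miR-155-5p) and 0 for miR-18. Of all miRNAs, 0.726% were called for miR-17 and for miR-19 and 0.363% for miR-18 and for miR-92, and none of these lay outside the miR-17~92 cluster.

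The largest estimate among the members was that of miR-142-3p for the loss of miR-92. miR-142-3p averaged 152 ± 48.6 nRPM (SD, n = 3) without miR-92 and 405 ± 250 nRPM (SD, n = 5) with it. Of these 5, Delta-18 alone stood at 849 nRPM and raised the mean, while the others stood at 253 to 328 nRPM. The fitted log2 difference was -1.12 ± 0.36 (SE; limma adjusted p = 0.990). All 3 libraries without miR-92, at 114 to 207 nRPM, lay below all 5 with it, at 253 to 849 nRPM, and this held under all 5 scalings. The groups did not overlap for 2.36% of all 551 miRNAs. miR-142-5p overlapped, at 235 to 376 nRPM without miR-92 and 292 to 648 nRPM with it. The partner miR-451 did not overlap, at 226 to 249 nRPM without miR-92 and 261 to 534 nRPM with it, but it overlapped with plain read totals. For the loss of miR-17 the estimate of miR-142-3p was -0.91 ± 0.38 (SE; limma adjusted p = 0.996), and leaving out 1 library moved it to between -1.80 (without Delta-17) and -0.13 (without Delta-18).

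miR-155-5p averaged 23.4 ± 1.67 nRPM (SD, n = 2) without miR-19 and 44.0 ± 8.64 nRPM (SD, n = 6) with it. The fitted log2 difference was -0.88 ± 0.35 (SE; limma adjusted p = 0.959). Both libraries without miR-19, at 22.2 and 24.6 nRPM, lay below all 6 with it, at 35.7 to 55.4 nRPM, under all 5 scalings. The groups did not overlap for 8.71% of all 551 miRNAs. For miR-17 and for miR-18 the groups overlapped for all 6 members, beside 3.09% and 5.63% of all miRNAs whose groups did not.

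The allelic series removes each family on more than 1 background. Ratios were taken for miR-18, miR-92 and miR-19, and they differed by member, with no test of the difference between backgrounds. For miR-17 the pairs are Delta-17 against wild type and Delta-17,18 against Delta-18, and only levels are given. In these pairs miR-142-3p stood at 313 against 328 nRPM and at 253 against 849 nRPM. miR-142-5p stood at 371 against 292 nRPM and at 501 against 648 nRPM. miR-144-5p stood at 154 against 98.4 nRPM and at 52.2 against 195 nRPM. Loss of miR-18 went with 3.40-fold miR-144-3p in Delta-18 against wild type, but with 1.01-fold (0.942 to 1.08) in Delta-17,18 against Delta-17. For miR-144-5p the values were 1.98-fold in Delta-18 against wild type and 0.339 (0.306 to 0.375) in Delta-17,18 against Delta-17. For miR-142-3p they were 2.59-fold and 0.807 (0.766 to 0.850). miR-142-5p stood above 1 on both backgrounds, at 2.22-fold (2.11 to 2.33) in Delta-18 against wild type and 1.35-fold (1.30 to 1.41) in Delta-17,18 against Delta-17.

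Loss of miR-92 went with a ratio of miR-142-3p below 1 on both backgrounds, 0.630 (0.589 to 0.674) in Delta-92 against wild type and 0.531 (0.499 to 0.564) in 19-only against Delta-17,18. miR-142-5p stood at 1.28 (1.21 to 1.36) and 0.470 (0.449 to 0.491) in the same pairs. Loss of miR-19 went with miR-155-5p at 0.588 (0.486 to 0.710) in Delta-19 against wild type and at 0.688 (0.587 to 0.805) in the full deletion against 19-only. miR-486-5p stood at 1.09 (1.06 to 1.13) and 1.88 (1.83 to 1.94) in these pairs.

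Of 6 further miRNAs of white cells (miR-223-5p, miR-150-3p, miR-155-3p, miR-146a-5p, miR-146b-5p and miR-342-3p), 3 averaged 10 nRPM or more, and none of the 3 was past 2-fold in any mutant. Their 6 levels summed to between 1732 nRPM (Delta-18) and 2368 nRPM (Delta-92), against 2318 nRPM in wild type. Most of this sum was miR-342-3p, and the 5 others summed to between 310 nRPM (19-only) and 425 nRPM (full deletion), against 396 nRPM in wild type. miR-146b-5p, which restrains innate immune signalling, ranged from 222 to 316 nRPM, and miR-342-3p from 1309 to 1972 nRPM. The endothelial miRNAs miR-126-3p and miR-126-5p summed to between 7371 nRPM (19-only) and 17558 nRPM (Delta-17,18), against 10720.1 nRPM in wild type. Of the 4 other rows of red-cell hairpins (miR-451, miR-486-3p, miR-3107-5p and miR-3107-3p), miR-451 in Delta-18 was the only one past 2-fold. The rows other than miR-451 repeat, or nearly repeat, the levels of the member miR-486-5p, so miR-451 is the only separate partner.

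Since miR-486 is also made in muscle, 6 miRNAs of striated muscle and heart were set beside it (miR-1a-3p, miR-133a-3p, miR-206-3p, miR-208a-3p, miR-208b-3p, miR-499-5p), none of them at 0 in any library. Their sum was highest in Delta-17,18, at 6109.9 nRPM, and lowest in Delta-17, at 2215 nRPM, against 3061 nRPM in wild type. miR-208a-3p, from the intron of a cardiac myosin gene, stood at 24.7 nRPM in Delta-17, 49.9 in Delta-18, 28.4 in Delta-19, 51.7 in Delta-92, 176 in Delta-17,18, 159 in 19-only and 32.4 in the full deletion, against 6.27 nRPM in wild type. Its level differed 28.0-fold between the extremes although the heart had been removed. No other miRNA of the list had the same full order. miR-1a-3p (5005 nRPM), miR-133a-3p (752 nRPM) and miR-499-5p (60.3 nRPM) were also highest in Delta-17,18. Next came Delta-92 for miR-1a-3p (4622 nRPM), 19-only for miR-133a-3p (605 nRPM) and Delta-19 for miR-499-5p (52.1 nRPM). miR-206-3p was highest in 19-only (205 nRPM) and lowest in Delta-19 (75.4 nRPM). miR-208b-3p was highest in the full deletion (28.4 nRPM), against 24.6 nRPM in wild type. Wild type, the reference of the mutant ratios, was the lowest library for miR-208a-3p (6.27 nRPM) and miR-499-5p (10.3 nRPM). It was not the lowest for the others of the list. The part of remaining heart tissue in the levels of the blood-cell miRNAs was not tested.

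The members were left out as candidates, which left 324 other miRNAs averaging 100 nRPM or more. Those most alike in pattern over the 8 libraries were found by Pearson's r on the log2 scale, as a description over libraries that share their scaling. For miR-144-3p they were miR-34c-5p (r = 0.78), miR-451 (0.77) and miR-542-3p (0.74). For miR-144-5p they were miR-376a-3p (0.92), miR-379-3p (0.90) and miR-431-3p (0.89). For miR-486-5p, with 323 candidates since the row of the same reads was left out, they were miR-486-3p and miR-3107-5p (both 0.998), which are the other arm rows of the overlapping hairpins, and miR-410-5p (0.94). For miR-142-3p they were let-7g-5p (0.89), miR-382-3p (0.82) and miR-23a-3p (0.81). For miR-142-5p they were miR-350-3p (0.88), let-7f-5p (0.84) and miR-369-3p (0.70), and for miR-155-5p miR-15b-3p (0.87), miR-190-5p (0.80) and miR-19a-3p (0.80). miR-19a-3p is itself deleted in Delta-19 and the full deletion. Between members, r was 0.72 for the arms of miR-142 and 0.56 for the arms of miR-144.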

How the data were processed

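Small RNA libraries were made from RNA extracted with Trizol, per the labels' protocols. Build mm9, STAR 2.2.0, Subread 1.4.2 (featureCounts) and SAMtools 0.1.19 are listed, with no settings, per the submitters' processing notes. Rules for multi-mapped reads and strand are not given in those notes. The deposited table contains signal values that the authors had divided by 1 factor per library. All values (100%) were whole multiples of 1 read within 0.001 reads, so whole reads were recovered. The table has 1046 rows for 977 accessions. Rows of 1 accession within 10% of each other were merged, the higher kept, which left 986; no member was listed more than once. Deposited values times 0.116 gave nRPM.

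Groups came from the labels, and the library of undetermined reads (3023436 reads) entered no comparison. limma 3.58.1 (R 4.3.3) was run with trend on log2(nRPM + 1), which understates changes of low miRNAs, over miRNAs averaging 10 nRPM or more, with 4 terms, 3 residual degrees of freedom and an adjusted threshold of 0.05. edgeR 4.0.16 (quasi-likelihood) and DESeq2 1.42.0 (Wald) on recovered reads were alternatives. The limma step was tested on simulated data. The miRNAs, lists and tests were chosen with earlier results of these data known. The miRNAs named are the members, the listed cell-type miRNAs and the 3 most alike to each member. Likeness used Pearson's r among miRNAs averaging 100 nRPM or more that were not members.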

Additional observations from a re-analysis of the deposited data

Results flagged for a closer look

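miR-142-3p in Delta-18, at 849 nRPM, lay far from the other 4 libraries that kept miR-92, which stood at 253 to 328 nRPM. It was the only such case among 48 checks of a member in a group of 4 to 6 libraries, where chance gives about 1 in 20. A single case in 48 is fewer than that rate gives, and the checks share libraries.

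The library of undetermined reads, which has no genotype, held all 8 miRNAs. It held miR-486-5p at 859 nRPM, miR-142-3p at 601, miR-142-5p at 399, miR-144-3p at 113, miR-144-5p at 96.8, miR-155-5p at 31.7, miR-223-3p at 4.93 and miR-150-5p at 3.17 nRPM. Its ratio of red-cell to white-cell reads was 1.03 (95% interval 0.978 to 1.08). Its ratio of miR-142-3p to miR-142-5p, 1.51, was above that of every genotype library.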

How the results depend on the processing

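The counts of members past 2-fold depended on settings where members lay near the limit. With plain read totals Delta-17 had 1, Delta-19 had 2, Delta-17,18 had 1 and the full deletion had 2, and the 1 member of 19-only was miR-144-3p (2.03) in place of miR-142-3p (0.530). With TMM there was 1 in Delta-17, and with median-ratio factors of the 8 libraries 1 in Delta-17,18. Delta-18 had 4, with miR-144-5p added, under TMM, median-ratio factors, totals outside the cluster and a limit of 1.5-fold. With no minimum the 8 members gave 2 in Delta-17, 1 in Delta-19, 1 in Delta-92, 1 in Delta-17,18, 2 in 19-only and 3 in the full deletion. The members so added were miR-223-3p and miR-150-5p, beside miR-142-3p in 19-only and the full deletion. A limit of 1.5-fold gave 2 in Delta-17, 3 in Delta-19, 1 in Delta-92, 4 in Delta-17,18, 3 in 19-only and 3 in the full deletion. With the median of the other 7 libraries as reference Delta-18 had 1. Plain totals shifted the median log2 ratio of all miRNAs by up to 0.38 (19-only).

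The limma count of members called was 0 for each term under every alternative run, including each library left out. Leaving out Delta-18 turned the estimate for the miR-18 term to -1.18 for miR-144-5p, -0.37 for miR-142-3p and -0.06 for miR-144-3p, none of them called. For miR-144-5p leaving out Delta-17 gave 1.20. The lowest adjusted p of miR-142-3p for the miR-92 term was 0.227 over 19 alternatives, without Delta-17,18, and the highest was 0.9996. That of miR-155-5p for the miR-19 term lay between 0.543 (DESeq2) and 0.994. No paired analysis was possible because each genotype had 1 library. Each ratio to wild type rests on single libraries, so none could be left out. Depth limits miR-223-3p and miR-150-5p most.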
